A study of Mus musculus with 73 samples.

Results

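DNA methylation at FoxA binding sites was compared between hepatocytes that lost Foxa1 and Foxa2 during liver development and hepatocytes that kept both genes. All 33302 sites of the developmental methylation table were taken, each 400 bp long, and 4 whole-genome bisulfite sequencing (WGBS) libraries of the 73 samples in the series were used. The 2 control libraries came from 8-week-old Foxa1L/L;2L/L mice without Cre. The 2 null libraries came from mice of that age and genotype that also carried the Alfp Cre transgene, so the alleles that Cre removes were homozygous in both groups. Alfp Cre acts in the developing liver, in the cells that give rise to hepatocytes and bile ducts, and hepatocytes were isolated from perfused livers on a Percoll gradient. The table holds methylation levels and no gene expression, so the labelled cell type could not be checked against markers. The labels do not say which mouse each library came from, so p-values measure only the spread between these libraries, which may be technical.

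FOXA1 and FOXA2 are forkhead transcription factors that bind their sites in closed chromatin and are known for opening liver enhancers to other factors. Cytosines of CpG pairs are methylated over most of the mouse genome, and enhancers in use by a cell usually carry less methylation than the DNA around them. Bisulfite converts unmethylated cytosine, so the share of reads that keep a cytosine gives the methylation level. In DNA from many cells, an intermediate level in every cell and a mixture of methylated and unmethylated cells cannot be told apart.

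Each site has 1 methylation level per library, here in percent, and a difference is given in points as developmental null minus control. Positions are on the mm9 build. No sequence or gene annotation of that build was used here, so sites are named by position. Many sites overlap: the 33302 sites form 25640 separate regions, of which 19972 hold 1 site, 4217 hold 2, 1045 hold 3 and 406 hold 4 or more. Of the 7662 overlapping consecutive sites, 1725 (22.5%) had the same level in all 4 libraries as the site before them, so sites are not independent. All sites lay on chromosomes 1 to 19.

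Most FoxA sites in control hepatocytes carried little methylation, and the null libraries held more sites at the upper end. The mean level over the 33302 sites was 20.6% in control 1, 22.4% in control 2, 25.7% in null 1 and 25.6% in null 2, with medians of 9.80%, 12.3%, 13.3% and 13.1%. Both nulls lay above both controls. The mean was 25.6% ± 0.052 (SD, n = 2) in nulls and 21.5% ± 1.27 (SD, n = 2) in controls, a difference of 4.16 points. The two-sided exact permutation p was 0.333, the smallest that 2 libraries against 2 allow, so no class mean of these libraries can pass a threshold of 0.05.

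The nulls held more sites at high levels and fewer at 5% to 20% than the controls. Sites at 80% or more made up 7.23% and 7.19% of all sites in the nulls, against 4.45% and 4.58% in the controls. Sites at 5% to 20% made up 30.8% and 29.5% in the nulls, against 36.4% and 42.4% in the controls. The share under 5% gave no such split: 27.5% and 28.6% in the nulls lay between the 21.2% of control 2 and the 30.2% of control 1. The density plot of null against control level shows the sites above the line of equal levels spread over the whole range of null levels.

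**Figure D1:**
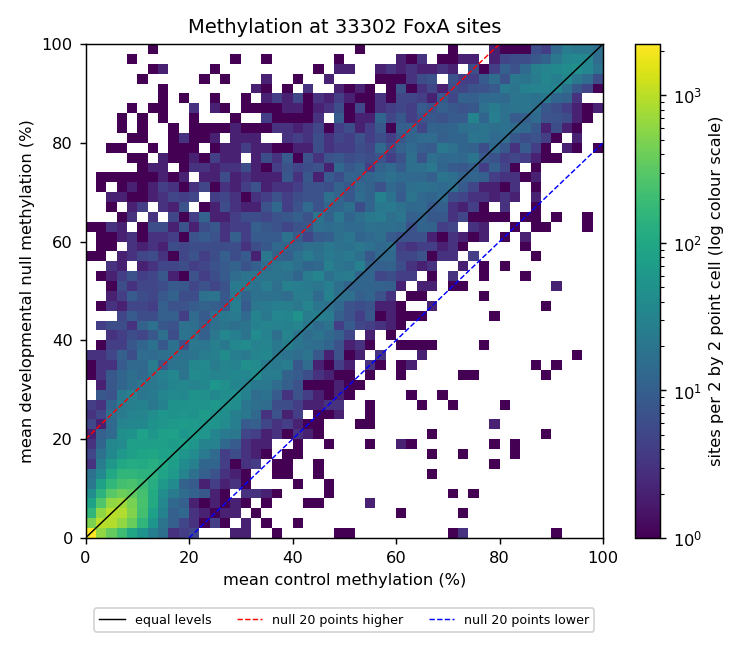
Mean developmental null methylation (vertical axis, percent, 2 libraries) against mean control methylation (horizontal axis, percent, 2 libraries) at 33302 FoxA sites; colour gives the number of sites in each cell on a log scale, and lines mark equal levels and differences of 20 points. More sites lie above the upper dashed line (8.12%) than below the lower one (0.474%). Sites under 20% in controls (65.3% of all sites) cannot lie below the lower line.

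The median site moved far less than the mean. The median difference was 1.07 points, the 5th and 95th percentiles were -6.80 and 25.8 points, and the 1st and 99th were -13.9 and 45.0 points. Differences between single libraries, which carry more noise than differences between means of 2, can be set against the spread between replicates. Over the 4 pairs of a null and a control, the 5th percentile lay between -10.4 and -8.23 points and the 95th between 25.9 and 29.0 points. They were -8.70 and 12.6 points between the 2 controls and -10.8 and 10.8 points between the 2 nulls. At these percentiles the upper tail of null minus control was longer than that between replicates, and the lower tail lay within or close to theirs. A level cannot fall below 0, and 65.3% of sites were under 20% in controls, which limits the lower tail.

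A difference of more than 20 points higher in the nulls was found at 8.12% of sites, which are those of the authors' deposited list of hyper-methylated sites, which follows from these same levels and is no separate evidence. These sites held 61.8% of the net sum of differences over all sites. The 3677 sites that were 10 to 20 points higher (11.0%) held 37.7%. The 26232 sites within 10 points (78.8%) held 9.25%, and the 688 sites more than 10 points lower (2.07%) had a share of -8.78%. Sites more than 10 points higher numbered 6382, or 19.2%, and held most of the net sum. They were sorted by the same differences that were then summed, which raises their share. These shares alone therefore do not show that the gain is concentrated.

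Replicates agreed more closely with each other than nulls did with controls. Across sites, Pearson's r was 0.961 between the controls and 0.969 between the nulls, and lay between 0.896 and 0.907 for the 4 pairs of a null and a control. These correlations are across sites, which share libraries and overlap. The median absolute difference was 3.61 points between controls and 3.33 points between nulls.

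Control 2 was higher than control 1 by 1.79 points on average, and null 2 differed from null 1 by -0.073 points. The mean of null minus control ranged from 3.23 to 5.09 points over the 4 pairs, and the lower end belongs to the pairs with control 2. The 2 controls differed by more than 20 points at 482 sites (1.45%) and the nulls at 491 sites (1.47%). Each null and control pair differed by that much at 2933 to 3548 sites (8.81% to 10.7%), with 2657 to 3336 of them higher in the null. Beyond 50 points, control 2 was higher at 2 sites and lower at 2, while a null was higher than a control at 184 to 319 sites and lower at 25 to 31.

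The difference could be read in libraries that do not share a sample by setting null 1 minus control 1 beside null 2 minus control 2. The 281 sites at least 50 points higher in the first of these pairs were higher by 59.2 points on average there and by 48.1 points in the other pair, with 99.3% of the same sign. The 3058 sites 20 to 50 points higher averaged 29.5 points in the first pair and 21.3 points in the other, and 52.0% of them were more than 20 points higher again. The 4304 sites 10 to 20 points higher averaged 14.2 and 7.90 points. The 24532 sites within 10 points averaged 0.843 points in the first pair and 0.044 points in the other. Values chosen as large in 1 pair were smaller in the other at every step. The other pair also takes control 2, which was 1.79 points above control 1 on average. The parts of the choice and of this offset were not separated.

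Sites that were lower in the first pair were fewer, and those of small size were less often of the same sign in the other. The 31 sites more than 50 points lower averaged -66.3 points in the first pair and -45.2 points in the other, with 93.5% of the same sign. The 181 sites 20 to 50 points lower averaged -27.3 and -13.3 points, and 35.9% were more than 20 points lower again. The 915 sites 10 to 20 points lower averaged -13.3 and -2.75 points, with 62.3% of the same sign. More than 20 points higher in both pairs were 1856 sites, 55.7% of the 3333 in the first pair and 68.4% of the 2714 in the other. More than 20 points lower in both were 92 sites, 43.4% of 212 and 32.1% of 287. Over all sites, 10.0% were that much higher in the first pair and 8.15% in the other, and 0.637% and 0.862% were that much lower.

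The difference varied with the level in controls. Sites with a mean control level of 20% to 80% were 30.3% of all sites and held 60.7% of the net sum of differences. Their mean level was 40.9% and 43.0% in the controls and 50.3% and 50.2% in the nulls, a difference of 8.32 points with a median of 6.71 points. Both nulls lay above both controls at 50.9% of them and below at 9.63%, against 33.9% and 14.9% over all sites. With 2 libraries per group either order often arises without a difference, so these shares do not count changed sites.

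Sites under 20% in controls were 65.3% of all sites and behaved differently. Their mean level was 6.51% and 8.31% in the controls and 9.85% and 9.82% in the nulls, a difference of 2.43 points with a median of 0.164 points. The typical site of low control level thus had nearly the same level in nulls, and the mean came from the upper tail: 1061 of these sites (4.88%) were more than 20 points higher. The remaining 1458 sites, at 80% or more, stood at 89.3% and 89.1% in the controls and 90.4% and 90.2% in the nulls.

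In the narrower classes of control level, the 7631 sites under 5% were at 2.11% and 2.98% in the controls and at 4.15% and 3.99% in the nulls. Their difference was 1.52 points, with a range over the 4 pairs of libraries of 1.01 to 2.03, and its median was 0.288 points. The 14109 sites at 5% to 20% were at 8.88% and 11.2% in the controls and at 12.9% and 13.0% in the nulls. Their difference was 2.92 points (pairs 1.75 to 4.09) with a median of -0.072 points. The median of single pairs of libraries ran from -0.835 to 1.48 points, so its sign depends on the pair. In this class 6.75% of sites were more than 20 points higher, while both nulls lay below both controls at 20.7% of the sites and above at 27.5%. Here too, either order can arise without a difference.

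The largest mean differences were those of the 5344 sites at 20% to 40% and the 3001 sites at 40% to 60%. The sites at 20% to 40% were at 27.7% and 30.2% in the controls and at 37.8% and 37.7% in the nulls, a difference of 8.84 points (pairs 7.58 to 10.1) with a median of 6.08 points. Those at 40% to 60% were at 48.0% and 49.9% in the controls and at 57.7% and 57.5% in the nulls, a difference of 8.62 points (pairs 7.54 to 9.71). Which of the 2 classes came first turned with the way the classes were set: with classes from control 1 alone, control 2 alone or the nulls of adult loss, the difference at 40% to 60% was the larger, at 8.16 against 7.76, 10.7 against 9.82 and 9.85 against 9.02 points. The values with the nulls of adult loss cover only the 28654 sites that also had adult null levels. With classes from both controls, the share of sites more than 20 points higher was 17.8% at 20% to 40% and 18.1% at 40% to 60%.

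The 1759 sites at 60% to 80% were at 68.9% and 70.1% in the controls and at 75.8% and 75.7% in the nulls. Their difference of 6.25 points (pairs 5.61 to 6.88) took up 20.5% of the distance to full methylation, against 16.9% at 40% to 60%, 12.4% at 20% to 40% and 3.25% at 5% to 20%. On that scale the order of the classes is not the order in points, since a site at a high level has less room. Sites at 80% or more differed by 1.14 points (pairs 0.912 to 1.37), which was 10.6% of their room. Their difference was larger, at 1.92 to 2.69 points, when the classes were set in other ways. Each class had an exact permutation p of 0.333, the smallest possible.

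**Figure D2:**
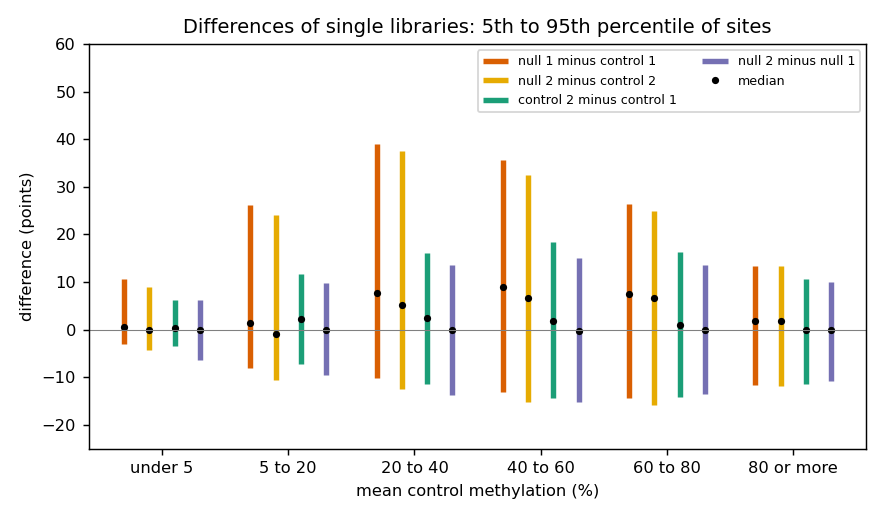
Difference between single libraries in methylation (vertical axis, points) of sites in 6 classes of mean control level (horizontal axis, percent); lines span the 5th to 95th percentile of sites and dots give the median, for 2 pairs of a null and a control (orange, yellow), for the 2 controls (green) and for the 2 nulls (purple). At 20% to 40% the 95th percentile was 39.1 and 37.5 points for null minus control, against 16.1 between controls and 13.6 between nulls.

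Differences of single libraries were compared with those between replicates in each class. At 5% to 20% the 95th percentile of null minus control lay between 23.3 and 26.9 points over the 4 pairs, against 11.7 points between controls and 9.85 points between nulls. At 20% to 40% it lay between 36.5 and 39.9 points, against 16.1 and 13.6 points. At 80% or more it lay between 12.7 and 13.4 points, against 10.6 and 10.0 points. Under 5% it lay between 8.99 and 10.6 points, against 6.21 and 6.16 points. The upper tail thus stood out least from the replicates at the highest control levels, where little room is left for a rise.

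The lower tail stood out farther from the replicates at high control levels, and only in its last part. At 80% or more the 5th percentile lay between -11.9 and -11.2 points, against -11.5 points between controls and -10.7 points between nulls. The 1st percentile lay between -38.5 and -29.0 points, against -18.7 and -18.5 points. At 60% to 80% the 1st percentile lay between -52.9 and -40.6 points, against -24.2 points between controls and -22.7 points between nulls. A few sites of high control level were thus lower in nulls by more than replicates differed.

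The classes were set by the same controls whose level is then subtracted, and this mattered for the lowest and the highest class. With the class taken from control 1 alone and the difference from control 2, sites under 5% differed by -0.097 points, and with control 2 setting the class and control 1 the difference, by 0.819 points. Another setting took the class from the 2 WGBS nulls of adult loss in the series, at the 28654 sites that also had adult null levels. These nulls were Foxa1L/L;2L/L mice given Cre by an AAV8 virus under the hepatocyte Tbg promoter at 8 weeks of age. Sites under 5% in the adult nulls differed by -0.062 points. The sign of the mean difference under 5% therefore depends on how the class is set. The other 5 classes kept a positive difference under these settings. It was 2.76 to 4.71 points at 5% to 20%, 7.76 to 9.82 points at 20% to 40% and 8.16 to 10.7 points at 40% to 60%. At 60% to 80% it was 6.26 to 7.68 points, and at 80% or more 1.92 to 2.69 points. The values at 80% or more lie above the 1.14 points (pairs 0.912 to 1.37) found with classes from both controls.

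Sites moved up the scale by 1 class more often than by several, but moves of 1 class did not separate the comparison from the replicates. Moves up by 1 class made up 26.6% of sites from control 1 to null 1 and 20.6% from control 2 to null 2. Between replicates they made up 23.3% from control 1 to control 2 and 15.2% from null 1 to null 2. Of the sites under 5% in controls, 74.4% stayed in that class in nulls, 23.8% stood at 5% to 20%, and 29 of 7631 reached 40% or more. Of the sites at 5% to 20%, 56.8% stayed, 24.0% stood under 5% and 15.1% at 20% to 40%, and 24 of 14109 reached 80% or more. Of the sites at 20% to 40%, 29.1% stood at 40% to 60% in nulls and 1.29% at 80% or more. Of those at 60% to 80%, 40.6% (714 sites) stood at 80% or more, and 92.7% of the sites at 80% or more stayed there.

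Moves of 2 or more classes separated the comparison from the replicates. From control 1 to null 1, 5.62% of sites moved up by 2 or more classes, and from control 2 to null 2, 4.38%. From control 1 to control 2 the share was 0.477%, and from null 1 to null 2 it was 0.246%. Moves down by 2 or more classes made up 0.381% and 0.580% of sites between controls and nulls, against 0.168% between the controls and 0.294% between the nulls.

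Tested site by site with limma on the percent scale, 1390 of 33302 sites (4.17%) rose in nulls and 82 (0.246%) fell, at a Benjamini-Hochberg adjusted p of 0.05. These counts rest on 2 libraries per group and are not stable. On the logit scale limma called 0 sites in either direction, with 6271 sites at an unadjusted p under 0.05 against 6639 on the percent scale. Leaving out any 1 of the 4 libraries also gave 0 calls, while the unadjusted p was under 0.05 at 4805 to 5363 sites. The counts are therefore given with their levels, as a description of which sites stand farthest from the spread.

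The sites that rose lay in 1200 separate regions. Their median level was 25.0% in controls and 67.0% in nulls, their median difference was 35.6 points, and 323 of them reached 80% or more. By class of control level there were 74 under 5% (0.970% of the class), 485 at 5% to 20% (3.44%) and 476 at 20% to 40% (8.91%). There were 276 at 40% to 60% (9.20%), 79 at 60% to 80% (4.49%) and 0 at 80% or more, where little room is left. The share over all sites was 4.17%. The largest rise among sites under 5% was at chr1:127612773-127613172, which was at 2.86% and 5.71% in the controls and at 76.8% and 81.3% in the nulls, a difference of 74.8 points (SE 4.45, limma adjusted p = 0.0133). A site almost free of methylation in both controls was thus mostly methylated in both nulls.

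The largest rises of the other classes ended close to full methylation, at 92.9% or more in both nulls. The site chr16:52267337-52267736 went from 3.33% and 12.7% to 95.7% and 97.2%, the largest rise at 5% to 20%. The site chr11:31001122-31001521, the largest at 20% to 40%, was at 40.6% and 10.2% in the controls and at 97.0% and 94.7% in the nulls. Its controls lay far apart, and its SE was 9.91 points on a difference of 70.4 points (limma adjusted p = 0.0265). The site chr17:86467725-86468124, the largest at 40% to 60%, was at 34.0% and 46.3% in the controls and at 92.9% and 95.1% in the nulls, a difference of 53.9 points (SE 5.23, limma adjusted p = 0.0149). The largest at 60% to 80%, chr11:72106631-72107030, was at 55.1% and 66.1% in the controls and at 97.2% and 98.4% in the nulls (SE 4.74 on 37.2 points, limma adjusted p = 0.0214). At all 5 of these sites the nulls lay within 5 points of each other, and passing limma favours close replicates. That they lay above both controls follows from the rule that picked them, and held at all 1390 sites that rose.

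The 82 sites that fell lay in 76 regions. Their median level was 52.5% in controls and 7.17% in nulls, with a median difference of -29.5 points and with 37 of them under 5% in nulls and 45 at 5% or more. The 158 sites more than 20 points lower, whether or not they passed the test, went from a median of 55.3% in controls to 21.3% in nulls, and 27 of them were under 5%. At 24 of the 82 sites both nulls stood at exactly 0, and 17 of those 24 had a control level under 20%. Over all 33302 sites, both nulls stood at 0 at 414, and 403 of those had a control level under 20%. A low control level at such sites was thus not particular to the calls. A fall of under 20 points made up 21 of the 82 calls. Without coverage, the number of reads behind a level of 0 is unknown.

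The largest falls past the threshold ended at or near 0. The site chr2:30058455-30058854 was at 19.0% and 16.7% in the controls and at 0% in both nulls, the largest fall past the threshold at 5% to 20% (SE 2.70 on -17.9 points, limma adjusted p = 0.0304). The site chr19:12770777-12771176 was at 32.1% and 28.6% in the controls and at 0% in both nulls, a difference of -30.4 points (SE 4.14, limma adjusted p = 0.0247). The site chr7:47299546-47299945 was at 59.1% and 44.8% in the controls and at 1.75% and 1.96% in the nulls, a difference of -50.1 points (SE 6.18, limma adjusted p = 0.0205). These 3 sites are the largest falls past the threshold in the classes from 5% to 60%, picked with both nulls below both controls. Each ended at or near 0 in both nulls, which this choice favours.

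The largest falls from high control levels were larger in points, but a fall cannot exceed the control level that sets the class. The site chr7:47085547-47085946, one of a pair of overlapping sites with the same levels, was at 84.6% and 62.5% in the controls and at 0% in both nulls (SE 7.89 on -73.6 points, limma adjusted p = 0.0161). The site chr9:25135611-25136010 was at 90.0% and 93.3% in the controls and at 0% in both nulls. No site under 5% fell past the threshold. Of the sites at 20% to 40%, 40% to 60%, 60% to 80% and 80% or more, 41, 47, 44 and 26 were more than 20 points lower in nulls. These made 0.767%, 1.57%, 2.50% and 1.78% of the classes. In the same classes 951, 543, 150 and 0 sites were more than 20 points higher. Sites under 20% in controls cannot be more than 20 points lower.

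The difference was spread over the genome. Its mean was positive in all 4 pairs of libraries on 19 of 19 chromosomes and ranged from 3.27 points on chromosome 7 to 4.98 points on chromosome 2. In each of the 4 pairs chromosome 2 was above chromosome 7, by 1.45 to 1.98 points. These chromosomes were picked as the extremes, and no test by chromosome was run. The range over pairs on a chromosome is mostly the offset between the controls, since control 2 was above control 1 by at least 1.55 points on every chromosome. Control levels ranged from 20.3% to 23.6%.

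The share of sites more than 20 points higher ranged from 6.73% on chromosome 7 to 9.71% on chromosome 1. Sites more than 20 points lower (0.474% of all sites) were spread less evenly in relative terms, with 2 sites (0.087%) on chromosome 2 and 18 sites (1.08%) on chromosome 7. Chromosome 7 thus had the lowest mean gain, the lowest share of large rises and the highest share of large falls, and chromosome 2 had the highest mean gain and the lowest share of large falls. In windows of 5 Mb, 461 of 501 windows with a site held a rise of more than 20 points. A fall of that size, which sites under 20% in controls cannot show, was held by 96. The window with the most falls, chr8:35000001-40000000, held 8 among its 94 sites, in 5 regions. The window with the most rises, chr4:100000001-105000000, held 23 among 147 sites, in 18 regions.

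**Figure D3:**
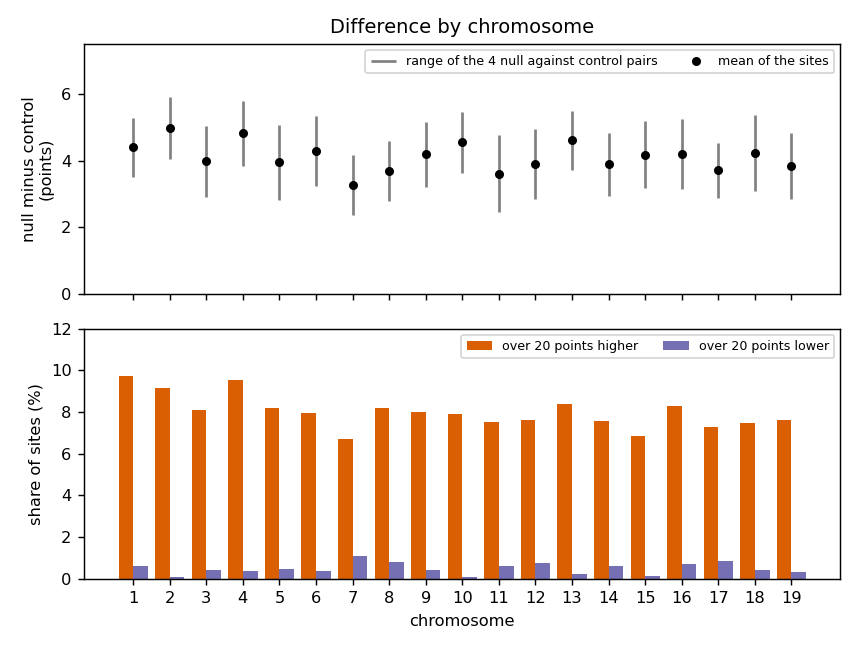
Upper panel, mean difference of null minus control in points for chromosomes 1 to 19 (dots) with the range of the 4 pairs of a null and a control library (lines); lower panel, share of sites in percent that were more than 20 points higher (orange) or lower (purple). All means lie between 3.27 and 4.98 points, and the share of falls is highest on chromosome 7, at 1.08%.

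Isolated sites had higher levels and larger mean differences than sites in overlapping groups. Sites alone in their region were at 26.2% in controls and 30.8% in nulls, a difference of 4.56 points (pairs 3.68 to 5.45). Regions of 2 sites went from 15.8% to 19.8%, a difference of 4.06 points (pairs 3.00 to 5.12). Regions of 3 sites differed by 2.68 points (pairs 1.61 to 3.75) and regions of 4 or more by 2.72 points (pairs 1.78 to 3.66), from control levels of 12.5% and 11.1%. Control level moves with the number of sites, and its part in this order was not tested.

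Neighbouring sites that do not overlap shared part of their difference over short distances. Between neighbours up to 500 bp apart (1386 pairs of sites), Pearson's r of the difference was 0.229. It was 0.163 at 500 to 2000 bp, 0.092 at 2000 to 5000 bp, 0.029 at 5000 to 20000 bp and 0.0018 at 100000 to 1000000 bp (4483 pairs). The difference between the 2 controls gave r of 0.014, 0.025 and 0.025 in the 3 nearest classes, so neighbours did not share their replicate error to this degree. Control levels also correlated between near neighbours, with r of 0.175 up to 500 bp and 0.162 at 500 to 2000 bp. These values describe sites of the same libraries, and r below 0.1 is too weak to read.

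Large rises lay near one another somewhat more often than the background. Where a site was more than 20 points higher, its next neighbour within 500 bp was too in 23 of 118 cases (19.5%), against 8.40% of all separate regions. The share was 13.2% (24 of 182) at 500 to 2000 bp, 14.8% (36 of 244) at 2000 to 5000 bp, 11.8% (61 of 515) at 5000 to 20000 bp and 7.87% (52 of 661) at 20000 to 100000 bp. Even at the shortest distance, most neighbours of a large rise did not have one.

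**Figure D4:**
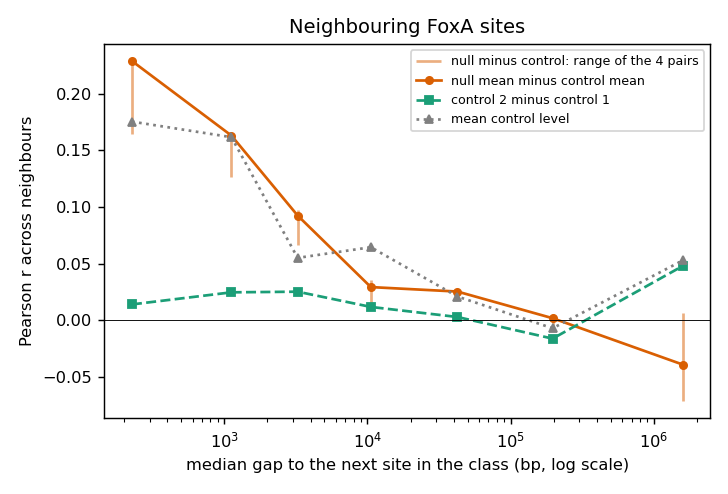
Pearson's r across neighbouring sites that do not overlap (vertical axis) against the median gap of the distance class (horizontal axis, bp, log scale), for the null mean minus the control mean (orange, with the range of the 4 pairs of libraries), control 2 minus control 1 (green) and the mean control level (grey). The r of the difference goes from 0.229 under 500 bp to 0.0018 at 100000 to 1000000 bp; the last class holds 363 pairs.

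Runs of sites at most 2000 bp apart held few multiple calls. Of the runs with a rise past the limma threshold, 1166 held 1 region past it and 17 held 2, and all 76 runs with a fall held 1. The run of chr4:90161998-90164342 spans 2345 bp and had 5 sites, all past the threshold. Its mean level was 20.8% and 20.4% in the controls and 63.2% and 63.6% in the nulls. The run holds a region of higher and a region of lower control level, which rose side by side: the site chr4:90161998-90162397 was at 44.4% and 35.7% in the controls and at 72.7% and 79.1% in the nulls, and the site chr4:90163602-90164001 at 6.25% and 4.00% and at 52.8% and 54.5%.

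The run of chr10:114773617-114774816 had 3 sites in 2 regions, at 11.7% and 11.4% in the controls and at 63.3% and 70.1% in the nulls. Its first site, chr10:114773617-114774016, had the largest gap between nulls of the 3 runs named, with 51.7% and 74.9%. The run of chr8:120117760-120119419 had 4 sites, of which 3 were past the threshold. Its mean level was 25.8% and 30.9% in the controls and 69.9% and 73.6% in the nulls. The site chr8:120118731-120119130 went from 2.51% and 13.9% to 52.1% and 52.1%, while the overlapping site chr8:120119020-120119419 was at 72.6% and 65.5% in the controls and at 78.2% and 80.4% in the nulls and did not pass (limma adjusted p = 0.255). Overlapping sites could thus hold different control levels, since they overlap by only part of their length.

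Reduced representation bisulfite sequencing (RRBS) gave levels in libraries that the WGBS levels did not use. It reads fragments cut by a restriction enzyme and so covers mainly CpG-rich DNA. The series has 4 control and 4 developmental double null libraries, 1 of each from mice aged 20 days, 8 weeks, and 4 or 6 months, with levels in 100 bp tiles. Of 817277 tiles, 369462 had a level in all 8 libraries, and 3673 of those lay wholly inside 2432 of the 33302 sites. The 20-day libraries stand apart: in each class of WGBS difference the highest level of each group was at 20 days. Whether any of these mice were also used for WGBS is not stated in the labels.

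Tiles inside sites that were more than 20 points higher by WGBS were also higher in the null RRBS libraries. Over the 101 tiles of 71 such sites, control levels were 40.6% at 20 days, 24.8% in the 8-week library, 20.9% in the 4-month and 18.7% in the 6-month one. Null levels were 53.1%, 50.0%, 41.5% and 45.5% in that order of ages. All 4 nulls lay above all 4 controls.

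The mean was 47.5% ± 5.09 (SD, n = 4) in nulls and 26.3% ± 9.91 (SD, n = 4) in controls, a difference of 21.3 points. The two-sided exact permutation p was 0.0286, the smallest that 4 libraries against 4 allow, and 0.143 after Benjamini-Hochberg adjustment over 5 classes, so it did not pass the threshold. The difference was 12.5 points at 20 days and 25.2, 20.6 and 26.8 points at the later ages in order, and thus smallest at the youngest age, where the control level was highest. Of the 101 tiles, 96 (95.0%) were higher in nulls and 52 were more than 20 points higher.

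Sites 10 to 20 points higher by WGBS gave a smaller difference in RRBS. Over 140 tiles of 100 sites, controls averaged 24.5% ± 6.04 and nulls 34.1% ± 4.97 (SD, n = 4), a difference of 9.66 points (exact permutation p = 0.0857, adjusted 0.214). The null was higher at each of the 4 ages, by 7.47 to 11.6 points, and 119 of 140 tiles (85.0%) were higher in nulls. At the 3400 tiles of sites within 10 points by WGBS, controls averaged 7.57% ± 1.48 and nulls 7.84% ± 1.09 (SD, n = 4), a difference of 0.273 points (exact permutation p = 0.714, adjusted 0.893), and 51.4% of tiles were higher in nulls. The order of the RRBS differences thus followed the order of the WGBS differences for the classes that were higher.

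The sites that were lower by WGBS were hardly covered. Only 9 tiles of 4 sites lay in the class more than 20 points lower, where controls averaged 33.8% ± 17.4 and nulls 29.8% ± 21.1 (SD, n = 4), a difference of -3.99 points (exact permutation p = 0.714, adjusted 0.893). The null was higher at 2 of the 4 ages. Over the 23 tiles of 14 sites that were 10 to 20 points lower, the difference was 0.922 points (exact permutation p = 0.943, adjusted 0.943). A loss at these sites was not detectable in RRBS with so few tiles, and leaving out single libraries turned the sign of both differences, with ranges of -14.1 to 4.01 and -3.59 to 6.09 points.

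**Figure D5:**
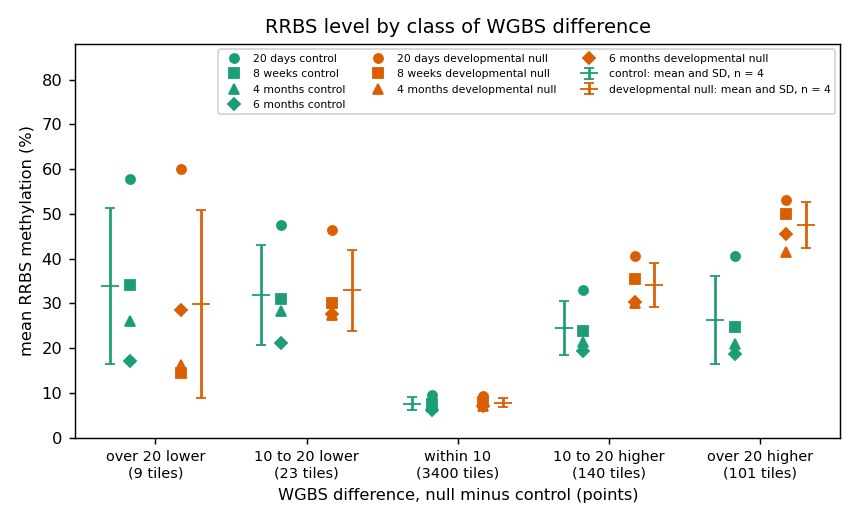
Mean RRBS methylation (vertical axis, percent) of tiles inside FoxA sites, in 5 classes of WGBS difference (horizontal axis, points); symbols give each control (green) and developmental null (orange) library by age, and bars the mean and SD of 4 libraries. In the class more than 20 points higher the nulls lie at 41.5% to 53.1% and the controls at 18.7% to 40.6%.

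Across the 3673 tiles, Pearson's r between the RRBS and the WGBS difference was 0.629 and Spearman's rho was 0.269. Between control levels of the assays r was 0.813 and rho 0.726. These are correlations across tiles, which share libraries, and 3400 of them lie in sites within 10 points by WGBS. Tiles in sites under 5% in the WGBS controls, 2209 in number, were at 3.18% in RRBS controls and in nulls alike, with a difference of 0.005 points. In the classes from 5% to 20% up to 80% or more, the RRBS difference was 1.27, 5.95, 6.86, 11.1 and 3.63 points, and the null was higher at all 4 ages in each class from 20% up. Leaving out single libraries moved the values to 0.225 to 2.79 points at 5% to 20%, 3.60 to 9.08 points at 20% to 40% and 4.17 to 11.1 points at 40% to 60%; the highest came without the 20-day control, and the lowest without the 20-day null or, at 40% to 60%, the 6-month control. The adjusted exact permutation p of the 6 classes ranged from 0.171 to 1, so none passed.

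Single sites with both assays gave the same picture for rises. A tile measured in all 8 RRBS libraries lay inside 33 of the 1390 sites that rose, against 2432 of all 33302 sites. Sites that rose were thus covered less often than sites in general. The 5 covered sites with the largest WGBS rise follow, with RRBS values in the order of age. The site chr16:32461849-32462248 was at 12.2% and 18.3% in the WGBS controls and at 88.3% and 86.1% in the nulls, and its RRBS levels were 8.82%, 20.0%, 14.3% and 16.7% in controls and 60.4%, 80.6%, 82.8% and 97.2% in nulls. The site chr3:121171735-121172134 went from 13.0% and 17.9% to 69.6% and 64.3% by WGBS, and its 3 tiles averaged 18.5%, 5.40%, 7.57% and 5.06% in controls and 40.1%, 43.9%, 56.1% and 43.1% in nulls. At both sites all null RRBS libraries lay above all controls.

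The remaining 3 rises had a high control level at 20 days. The site chr8:129329616-129330015 went from 10.0% and 14.6% to 57.3% and 67.9% by WGBS, and its RRBS levels were 66.7%, 9.09%, 8.33% and 0% in controls and 90.5%, 75.0%, 35.7% and 50.0% in nulls. The site chr5:130548943-130549342 went from 3.07% and 15.9% to 50.0% and 66.8% by WGBS, with RRBS levels of 38.3%, 2.22%, 13.7% and 6.67% in controls and 75.0%, 80%, 69.4% and 70.9% in nulls. The site chr18:59238978-59239377 went from 46.8% and 42.7% to 84.1% and 80.2% by WGBS, with RRBS levels of 76.2%, 46.5%, 69.7% and 8.89% in controls and 97.8%, 94.0%, 86.7% and 94.7% in nulls. At all 5 sites the null was above the control of its own age at every age.

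Of the 82 sites that fell, 2 held such a tile. The site chr7:139811694-139812093 went from 53.6% and 56.6% to 16.5% and 21.4% by WGBS, and its 2 tiles averaged 57.1%, 40.1%, 51.0% and 30.6% in RRBS controls and 63.2%, 21.2%, 15.4% and 24.6% in nulls. The null was lower at 3 of the 4 ages and higher at 20 days. The site chr5:125643751-125644150 was at 7.14% and 7.69% in the WGBS controls and at 0% in the nulls, and its RRBS levels were 16.7%, 0%, 0% and 0% in controls and 0%, 0%, 0% and 3.85% in nulls, near 0 in all but 1 library.

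HNF6 is a homeodomain factor of liver development that binds many sites beside FOXA2, and the series holds the authors' peak lists of HNF6 in 3 control libraries, each called separately. A peak in all 3 lists overlapped 625 of the 33302 sites (1.88%). The share was 2.18% of sites within 10 points (573 of 26232, Wilson 95% interval 2.01% to 2.37%), 0.598% of sites 10 to 20 points higher (22 of 3677, 0.395% to 0.904%) and 0.702% of sites more than 20 points higher (19 sites, 0.450% to 1.09%). It was 2.08% of sites 10 to 20 points lower (11 of 530, 1.16% to 3.68%) and 0 of 158 sites more than 20 points lower, with an upper bound of 2.37%. The intervals cover counting error only, and overlapping sites can share a peak.

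The share with an HNF6 peak also moved with the control level. From under 5% to 80% or more, the 6 classes had shares of 2.08%, 2.88%, 0.805%, 0.367%, 0.171% and 0.137%. Shares within classes of control level were added after these shares were seen, for sites within 10 points and sites more than 20 points higher. Under 5% they were 2.13% (156 of 7337, Wilson 95% interval 1.82% to 2.48%) and 1.83% (2 of 109, 0.505% to 6.44%). At 5% to 20% they were 3.19% (377 of 11826, 2.89% to 3.52%) and 0.945% (9 of 952, 0.498% to 1.79%). At 20% to 40% they were 0.962% (30 of 3117, 0.675% to 1.37%) and 0.736% (7 of 951, 0.357% to 1.51%), and at 40% to 60% 0.432% (7 of 1621, 0.209% to 0.889%) and 0.184% (1 of 543, 0.0325% to 1.04%). The intervals do not overlap at 5% to 20% and overlap in the other 3 of these classes, and no test of the difference was run.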

How the data were processed

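WGBS levels are fractions of methylation per 400 bp FoxA site, as deposited by the authors, and RRBS levels are fractions per 100 bp tile, also as deposited; both were multiplied by 100 to give percent. Reads were trimmed and aligned with Trim Galore 0.3.3 and BSMAP 2.74 on mm9, per the submitters' processing notes. The sources used here do not give how CpGs were combined per site, or any coverage filter. The deposited tables hold no coverage, so depth per site is unknown (the labels state more than 20-fold for WGBS) and levels carry no interval. HNF6 peak lists were used by position only; MACS 2.1.1 called them per library, per the file headers.

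Percent levels of each site entered limma 3.58.1 (R 4.3.3) with its variance trend, and p-values were adjusted over all 33302 sites by the Benjamini-Hochberg method. Exact permutation tests, two-sided, compared class means per library (Python 3.11.15, scipy 1.17.1). The scripts were tested on simulated data. Sites were named by rule: the largest rise and fall past the limma threshold in each class of control level, the 3 runs with the most regions past it (ties among 17 runs were broken by sites past it and then by mean difference, a step added later), and the 5 largest rises and 3 largest falls among called sites with an RRBS tile, where 2 falls qualified. The largest rise and fall of each class also had to have both nulls on one side of both controls. The 5 Mb windows were named after their counts were seen. The members, classes and rules were chosen with earlier results of these data known. In the authors' adult table, the column headed as developmental null 1 holds control 2 and was not used; the adult nulls served only to set classes and in 1 alternative fit. Alternatives are in the closing section.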

Additional observations from a re-analysis of the deposited data

Results flagged for a closer look

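In the RRBS libraries, 22 groups of 4 libraries were screened for a library far from the other 3, of which chance flags about 1 in 20. One stood out: over the 23 tiles of sites 10 to 20 points lower by WGBS, the 20-day developmental null had a level of 46.4%, and the nearest other null had 30.0%. The gap was 0.868 of the range of the group. The 20-day control of this class, at 47.5%, was also the highest of its group.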

How the results depend on the processing

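The limma counts of 1390 rises and 82 falls changed most. On the logit scale, with levels bounded at 1% and 99%, 0 sites rose and 0 fell. Leaving out each library in turn gave 0 to 0 calls in either direction; these fits had 1 residual degree of freedom and took the lone library to vary like the other group. With mean levels of 5% to 95% there were 3135 rises and 243 falls, and 1385 and 76 of the 1390 and 82 sites were among them. At the 28654 sites of both tables there were 1148 and 69, an alternative added later, and joined with the adult null table at those sites 2037 and 181. With a replicate block there were 970 and 42; the replicate numbers did not pair the libraries (r of the deviations -0.0044), and with 2 numbers per group they share only a number. Without the variance trend the counts were 1639 and 89, and with 1 site per separate region 1116 and 76.

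Spearman's rho between replicates was 0.878 in controls and 0.917 in nulls. The mean difference of sites under 5% was -0.097 points with classes from control 1. It was -0.062 points with classes from the adult nulls, at the sites of both tables. HNF6 peaks in at least 1 control list overlapped 6.33%, 10.4%, 9.79%, 5.00% and 4.14% of sites, from more than 20 points lower to more than 20 points higher. In RRBS, leaving out each library gave -14.1 to 4.01 points in sites more than 20 points lower, -3.59 to 6.09 points in sites 10 to 20 points lower, -0.233 to 0.957 points within 10 points and -0.148 to 0.172 points in sites under 5% in controls, an added class. Tiles that overlap a site by 1 bp gave -0.785 points in sites 10 to 20 points lower, and 1 mean per site gave -0.028 points in sites under 5%. The cause of these changes was not tested. For sites more than 20 points higher, leaving out each RRBS library gave 18.8 to 26.1 points, and with the ages as a replicate block the adjusted exact permutation p was 0.312, where 0.125 is the smallest p before adjustment. The other 201 alternative values kept their direction, their side of the threshold and, for counts, stayed within 1.5 times, except r of neighbours 100000 to 1000000 bp apart, which was -0.00097 with overlapping sites left in.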
